A study of Mus musculus with 13 samples.

Results

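The genes described here encode the proteins of the cytosolic ribosome. They were taken by symbol, as Rpl or Rps followed by a number with an optional letter, X or l suffix, plus Rplp0, Rplp1, Rplp2 and Rpsa where measured, and without pseudogene symbols and the Rps6k kinases. This gave 64 of the 19505 genes with a symbol on the array, 40 of the large subunit and 24 of the small one. Of 75 symbols that begin in these ways, 11 were left out: Rpl31-ps12, Rpl37rt, Rps27rt, Rps19bp1, Rps23rg1 and 6 kinases. The rule uses symbols and no measured value, but the set was chosen with earlier results of these data known.

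Marrow RNA was measured on 13 Affymetrix arrays: 4 came from mice given BRSST+sgEzh2 cells, 5 from BRSST+sgLuc and 4 from the control guide sgLuc without BRSST. The labels use BRSST for a set of guides and do not spell the name out. All groups were C57Bl/6J recipients irradiated with 7 Gy, which received LSK cells (a marrow fraction enriched in stem and progenitor cells) of Cas9 knock-in mice 24 h after those cells were transduced with guides. Whole marrow was taken at signs of leukemia or after 6 months. The sources used here do not give which array belongs to which case, the share of donor cells, the promoter that drives Cas9 or whether each array is a separate mouse. The p-values therefore reflect array-to-array spread, which may be technical. Numbers in the sample descriptions run on through both BRSST groups and skip ahead before the sgLuc group. What they mark is not stated, and if it is a processing batch, it cannot be told apart from the lack of BRSST.

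Each ribosome has a small subunit that reads the mRNA and a large subunit that joins amino acids. Their proteins are made in matched amounts, and their mRNAs are among the most abundant of growing cells. Most ribosomal protein mRNAs start with a C followed by a run of pyrimidines, a terminal oligopyrimidine (TOP) tract through which mTOR signalling adjusts their translation. Mutations of single ribosomal protein genes cause Diamond-Blackfan anaemia, a failure of red cell production, and some are mutated or deleted in leukemia and myelodysplastic syndrome.

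Ezh2, the target of the added guide and the methyltransferase of Polycomb repressive complex 2, averaged a log2 signal of 8.78 ± 0.50 on the 4 BRSST+sgEzh2 arrays, 9.82 ± 0.50 on the 5 BRSST+sgLuc arrays and 10.35 ± 0.28 on the 4 sgLuc arrays (SD). BRSST+sgEzh2 minus BRSST+sgLuc was -1.05 (limma adjusted p = 0.0808; exact permutation p, two-sided, 0.0238). Neutrophil markers lay above the array median on each array for all 17 measured genes. Y-linked genes were high on 2 of 4 BRSST+sgEzh2 arrays, on 2 of 5 from BRSST+sgLuc marrow and on all 4 from sgLuc marrow.

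Ribosomal protein mRNA signals were higher in marrow of both BRSST groups than in sgLuc marrow, and no difference was detected between the BRSST groups. The mean log2 signal over the 64 genes was 11.87, 11.95, 11.93 and 11.84 on the BRSST+sgEzh2 arrays and 11.94, 11.96, 11.89, 11.90 and 11.89 on the BRSST+sgLuc arrays, against 11.61, 11.64, 11.59 and 11.72 on the sgLuc arrays. All 9 BRSST arrays were above all 4 sgLuc arrays. BRSST+sgEzh2 arrays thus averaged 11.90 ± 0.05 (SD, n = 4) and BRSST+sgLuc arrays 11.92 ± 0.03 (SD, n = 5), against 11.64 ± 0.06 (SD, n = 4) on sgLuc arrays. Over all genes, BRSST+sgEzh2 arrays averaged 7.49 and BRSST+sgLuc arrays 7.47, against 7.48 on sgLuc arrays. In whole marrow, a change in the share of cells and a change of RNA per cell cannot be told apart.

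**Figure D1:**
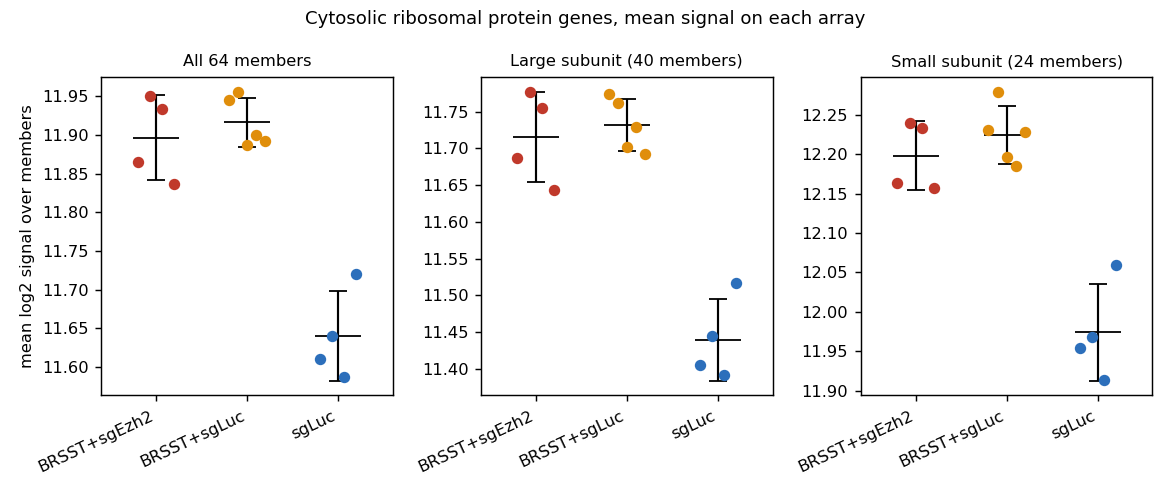
Mean log2 signal over the cytosolic ribosomal protein genes on each array (points), for all 64 members, the 40 large-subunit genes and the 24 small-subunit genes, with the group mean and SD (lines and bars; n = 4, 5 and 4 arrays). In each panel the BRSST+sgEzh2 and BRSST+sgLuc arrays overlap and all lie above the sgLuc arrays; the vertical axes do not start at 0.

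The members gave some of the brightest signals on the array. Their median of the mean log2 signal over 13 arrays was 12.31, against 7.33 over all genes, and 34 of 64 were in the top 1% of genes. Probes differ in brightness, so the order of signals between genes is not an order of RNA levels. A gene was tested where it exceeded its array's median on at least 4 arrays, which 62 members did. Rpl3l (mean log2 signal 6.93), a paralog known from heart and skeletal muscle, and Rpl39l (4.19), known from testis, did not pass. Without a test, Rpl3l differed from sgLuc by -0.30 in BRSST+sgEzh2 and by -0.27 in BRSST+sgLuc. Rpl39l differed by 0.13 in both, and the groups overlapped for both genes.

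BRSST+sgLuc against sgLuc asks what the guide combination changes in marrow without the Ezh2 guide. The limma fit over 13 arrays called 33 of 62 members higher and 0 lower at an adjusted p under 0.05, where 10.8% of all 10601 tested genes were called higher and 11.7% lower (22.5% in all). No tested member was lower at an unadjusted p under 0.05 either. The median difference was 0.25 (log2), or 1.19-fold, against 0.01 over all tested genes, and 61 of 62 differences were positive. The 5 BRSST+sgLuc arrays lay wholly above the 4 sgLuc arrays for 46 members and below them for 0, where 9.09% of tested genes lay above and 9.82% below. The number called depended on single arrays: it was 17 without sgLuc replicate 1, 21 without sgLuc replicate 3, and 22 without BRSST+sgLuc replicate 1 or sgLuc replicate 2. The median difference stayed between 0.23 and 0.28 with any 1 array left out.

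BRSST+sgEzh2 against sgLuc asks the same with the Ezh2 guide added. Here 17 of 62 members were called higher and 0 lower, where 5.51% of tested genes were called higher and 3.86% lower (9.37% in all). The median difference was 0.24 (1.18-fold), against 0.02 over all tested genes, and 59 of 62 were positive. For 43 members the BRSST+sgEzh2 arrays lay wholly above the sgLuc arrays and for 0 below, where 14.2% of tested genes lay above and 9.06% below. Leaving out sgLuc replicate 1 or 2 left 9 calls, BRSST+sgEzh2 replicate 1 or 2 left 10, and BRSST+sgEzh2 replicate 3 or sgLuc replicate 3 left 11. This comparison shares its 4 sgLuc arrays with the one before, so the same values on the sgLuc side enter both.

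BRSST+sgEzh2 against BRSST+sgLuc asks what the Ezh2 guide adds, and limma called 0 of 62 members in either direction, where 0.783% of tested genes were called (0.67% higher and 0.113% lower). No tested member had an unadjusted p under 0.05, and the smallest adjusted p was 0.63. The arrays of the BRSST groups overlapped for all 64 members, where 2.52% of tested genes lay wholly higher and 1.01% wholly lower in BRSST+sgEzh2. The median difference was -0.01 (log2), against 0.01 over all tested genes, with 20 positive and 42 negative. Rpl39 had the most negative difference, -0.16, and Rpl7l1 the most positive, 0.10. The 95% intervals had a median half-width of 0.19, and for 44 members the interval lay within log2 0.25 on either side of 0. The interval of Rps4l was the widest, from -0.50 to 0.25.

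**Figure D2:**
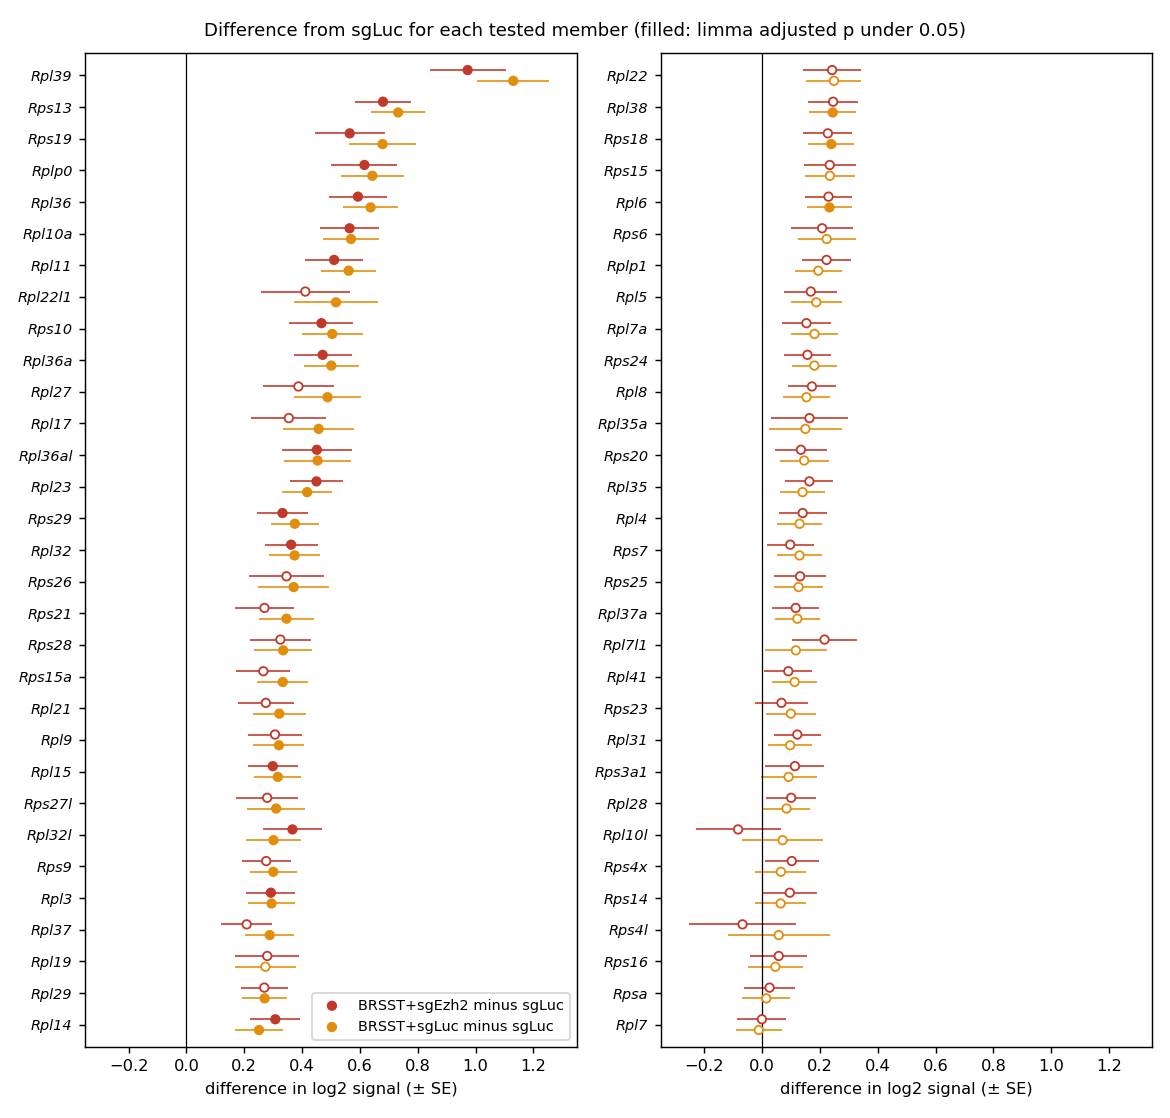
Difference from sgLuc in log2 signal, ± SE, for each of the 62 tested members, ordered by BRSST+sgLuc minus sgLuc; red is BRSST+sgEzh2 minus sgLuc, orange is BRSST+sgLuc minus sgLuc, and filled points have a limma adjusted p under 0.05. Nearly all points lie right of 0, from 1.13 for Rpl39 down to -0.01 for Rpl7 in BRSST+sgLuc, and the paired points of a gene lie close together.

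Rpl39 encodes one of the smallest ribosomal proteins, which lines the tunnel through which the new chain leaves the large subunit. Its log2 signal was 9.09, 9.44, 9.58 and 9.33 in BRSST+sgEzh2 and 9.75, 9.51, 9.29, 9.59 and 9.45 in BRSST+sgLuc, against 8.41, 8.36, 8.21 and 8.58 in sgLuc. Every BRSST array exceeded every sgLuc array. The difference from sgLuc was 0.97 ± 0.13 (SE) in BRSST+sgEzh2, or 1.96-fold (limma adjusted p = 0.000422), and 1.13 ± 0.13 in BRSST+sgLuc, or 2.19-fold (limma adjusted p = 7.2e-05). No other member differed by as much in either comparison.

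Rps13 encodes a small-subunit protein. It had log2 signals of 11.86, 11.98, 12.02 and 11.89 in BRSST+sgEzh2 and 12.05, 12.12, 11.95, 11.82 and 12.01 in BRSST+sgLuc, against 11.22, 11.15, 11.36 and 11.31 in sgLuc. The lowest BRSST array was above the highest sgLuc array. Rps13 rose 1.60-fold in BRSST+sgEzh2 (limma adjusted p = 0.000684) and 1.66-fold in BRSST+sgLuc (limma adjusted p = 0.000219).

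Rps19, the small-subunit gene most often mutated in Diamond-Blackfan anaemia, read 10.84, 10.97, 11.02 and 10.90 in BRSST+sgEzh2 and 11.09, 11.37, 11.01, 10.92 and 10.85 in BRSST+sgLuc, against 10.26, 10.39, 10.28 and 10.54 in sgLuc (log2 signal). Again the BRSST arrays and the sgLuc arrays did not overlap. The rise was 1.48-fold in BRSST+sgEzh2 (limma adjusted p = 0.00984) and 1.60-fold in BRSST+sgLuc (limma adjusted p = 0.00131).

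Rplp0 is the base of the acidic stalk, the arm of the large subunit that recruits translation factors, and is often used as a reference gene in quantitative PCR. Its log2 signal was 10.57, 10.77, 10.76 and 10.63 in BRSST+sgEzh2 and 10.77, 10.78, 10.77, 10.65 and 10.59 in BRSST+sgLuc, against 9.87, 9.92, 10.30 and 10.19 in sgLuc. It rose 1.53-fold in BRSST+sgEzh2 (limma adjusted p = 0.00417) and 1.56-fold in BRSST+sgLuc (limma adjusted p = 0.00129), with no overlap of BRSST and sgLuc arrays. Rplp1, the other stalk gene measured, averaged 12.996 ± 0.062 (SD, n = 4) in BRSST+sgEzh2 and 12.97 ± 0.02 (SD, n = 5) in BRSST+sgLuc, against 12.77 ± 0.07 (SD, n = 4) in sgLuc. Its differences of 0.22 and 0.19 did not pass (limma adjusted p = 0.123 and 0.101). Rplp2 is not analysed here.

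Other large-subunit genes also passed in both comparisons with sgLuc. Rpl36 rose 1.51-fold in BRSST+sgEzh2 and 1.55-fold in BRSST+sgLuc (limma adjusted p = 0.00241 and 0.000615). Rpl10a, whose protein sits on the mobile L1 arm beside the tRNA exit site, rose 1.48-fold in both (limma adjusted p = 0.00353 and 0.00136). Rpl36a rose 1.39-fold and 1.41-fold (limma adjusted p = 0.00948 and 0.00262).

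Rpl11 binds Mdm2 together with Rpl5 and 5S ribosomal RNA when ribosome assembly fails, which stabilises p53. Its log2 signal was 11.93, 11.96, 12.04 and 11.85 in BRSST+sgEzh2 and 12.03, 12.16, 11.87, 12.07 and 11.85 in BRSST+sgLuc, against 11.38, 11.37, 11.43 and 11.55 in sgLuc. The rise was 1.42-fold in BRSST+sgEzh2 (limma adjusted p = 0.00604) and 1.48-fold in BRSST+sgLuc (limma adjusted p = 0.00136). Its partner Rpl5 read 12.84, 12.94, 12.79 and 12.71 in BRSST+sgEzh2 and 12.86, 12.91, 12.87, 12.70 and 12.85 in BRSST+sgLuc, against 12.69, 12.66, 12.58 and 12.68 in sgLuc. All BRSST arrays of Rpl5 lay above the sgLuc arrays, but its differences of 0.17 and 0.19 did not pass (limma adjusted p = 0.285 and 0.142).

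**Figure D3:**
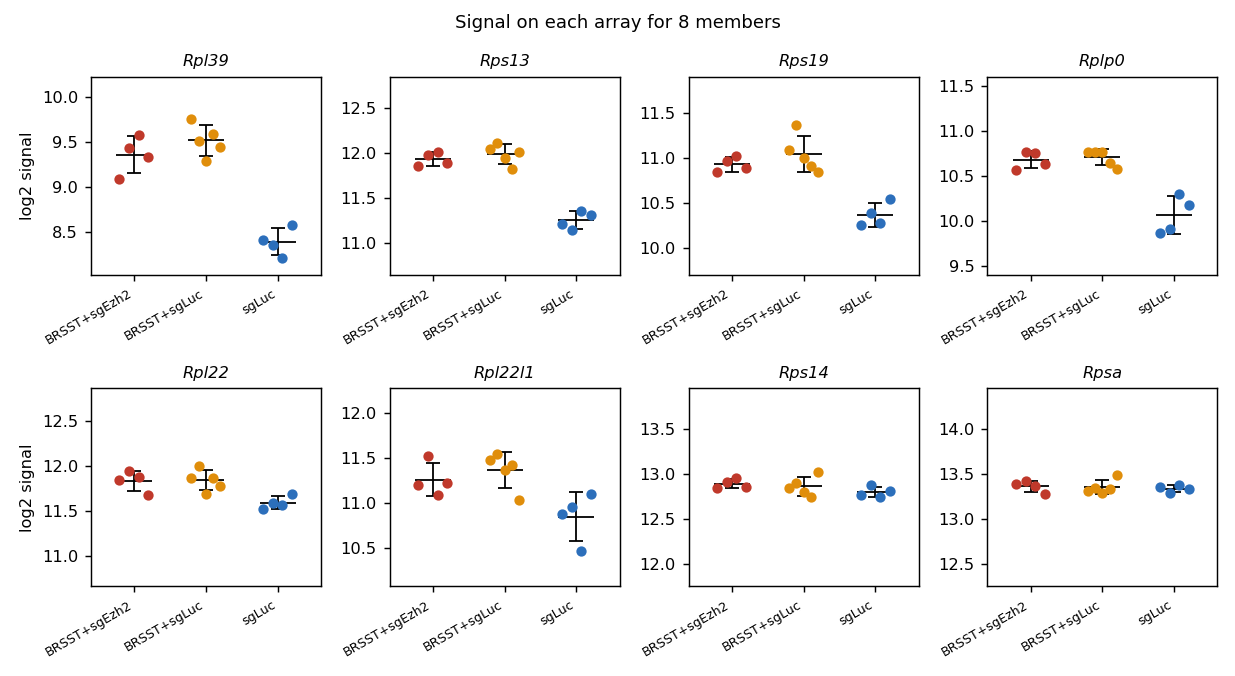
Log2 signal on each array (points) with the group mean and SD for Rpl39, Rps13, Rps19, Rplp0, Rpl22, Rpl22l1, Rps14 and Rpsa; each panel spans the same number of log2 units around its own gene, so axes do not start at 0. The sgLuc arrays sit apart below the BRSST arrays for the genes of the upper row, and the 3 groups overlap for Rps14 and Rpsa.

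A few members lay close to 0 in both comparisons with sgLuc. Rpsa, the laminin receptor precursor of the small subunit and the member with the highest signal, read 13.39, 13.42, 13.36 and 13.28 in BRSST+sgEzh2 and 13.31, 13.35, 13.29, 13.33 and 13.49 in BRSST+sgLuc, against 13.35, 13.29, 13.38 and 13.33 in sgLuc. The groups overlapped, with differences of 0.03 and 0.01 (limma adjusted p = 0.901 and 0.928). Rps14, lost with the deleted part of chromosome 5 in a human myelodysplastic syndrome, read 12.85, 12.91, 12.96 and 12.86 in BRSST+sgEzh2 and 12.84, 12.90, 12.80, 12.75 and 13.03 in BRSST+sgLuc, against 12.77, 12.88, 12.75 and 12.81 in sgLuc. Its groups also overlapped, with differences of 0.10 and 0.06 (limma adjusted p = 0.598 and 0.664). Rpl7 was the 1 tested member with a negative difference in BRSST+sgLuc, -0.01, and Rps16 differed by 0.05 and Rps4x by 0.06 there.

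By subunit, 13 of 38 large-subunit genes were called higher in BRSST+sgEzh2 and 22 of 38 in BRSST+sgLuc, each against sgLuc. For the small subunit these were 4 of 24 and 11 of 24. Of all tested genes, 5.51% and 10.8% were called higher in these comparisons. The small-subunit genes higher in both groups were Rps10, Rps13, Rps19 and Rps29, and those called with BRSST+sgLuc alone were Rps9, Rps15a, Rps18, Rps21, Rps26, Rps27l and Rps28. The large-subunit genes higher in both were Rpl3, Rpl10a, Rpl11, Rpl14, Rpl15, Rpl23, Rpl32, Rpl32l, Rpl36, Rpl36a, Rpl36al, Rpl39 and Rplp0. Called with BRSST+sgLuc alone were Rpl6, Rpl9, Rpl17, Rpl21, Rpl22l1, Rpl27, Rpl29, Rpl37 and Rpl38. For none of these 16 genes did the BRSST groups themselves differ by the test, so their calls are not shown to differ between the groups. The remaining 29 tested members passed in neither comparison.

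Differences were larger for members of lower signal. In BRSST+sgLuc against sgLuc, the 6 members with a mean log2 signal of 9 to 11 had a median difference of 0.64, and 5 were called. The 15 members at 11 to 12 had a median of 0.45 with 12 called, and the 32 members at 12 to 13 had 0.23 with 15 called. Among 7 members above 13 the median was 0.11, with Rps29 the 1 called. The share of all tested genes called higher there was 10.8%. The bands in BRSST+sgEzh2 against sgLuc ran from 0.58 at 9 to 11 down to 0.12 above 13. Against this order, Rps4l and Rpl10l, with mean log2 signals under 9, differed by 0.06 and 0.07 in BRSST+sgLuc.

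Across the 62 tested members, Spearman's rho of mean signal with BRSST+sgLuc minus sgLuc was -0.52, a description over genes that share the same arrays. Signals near the top of the range can be compressed, and whether that sets the order was not tested. Among 251 genes that were no members and had a mean log2 signal of 12 or more, 15.1% were called higher and 7.97% lower in BRSST+sgLuc, with a median difference of 0.004. In BRSST+sgEzh2 these were 3.19% and 2.79%. Of the 39 members that bright, 6 were called higher in BRSST+sgEzh2 and 16 in BRSST+sgLuc, with a median of 0.19 in BRSST+sgLuc.

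**Figure D4:**
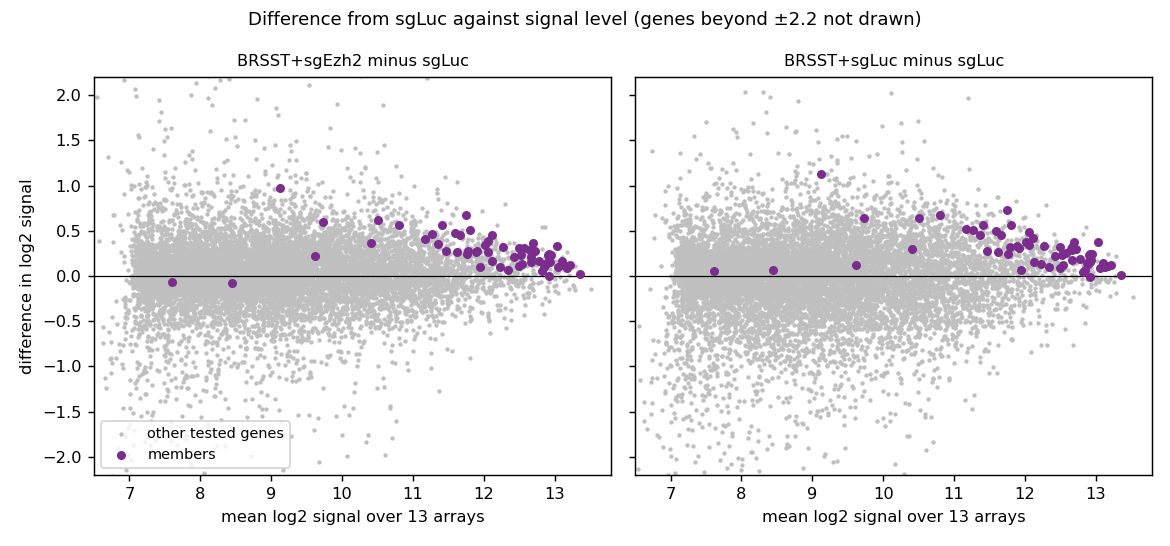
Difference from sgLuc (log2) against the mean log2 signal over 13 arrays for all tested genes (grey) and the 62 tested members (purple), for BRSST+sgEzh2 on the left and BRSST+sgLuc on the right. The members lie at the bright end, almost all above 0, with the largest differences among those of lower signal; genes beyond ±2.2 are not drawn.

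Diamond-Blackfan anaemia genes followed the members as a whole. Of 23 such genes 19 were measured, and 5 were called higher in BRSST+sgEzh2 and 10 in BRSST+sgLuc, each against sgLuc. These shares of 26.3% and 52.6% compare with 27.4% and 53.2% of all tested members. Among all tested genes they were 5.51% and 10.8%. Besides Rps19 and Rpl11, Rps10 rose 1.38-fold in BRSST+sgEzh2 and 1.42-fold in BRSST+sgLuc (limma adjusted p = 0.0174 and 0.00442), though the first call was lost without sgLuc replicate 1 or 2 (highest adjusted p = 0.0713). Rpl27 rose 1.402-fold in BRSST+sgLuc (limma adjusted p = 0.00866), and its difference of 0.39 in BRSST+sgEzh2 did not pass (limma adjusted p = 0.061).

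Ribosomal protein genes known to be mutated or deleted in blood cancer had 5 of 6 measured, and Rpl11 was the 1 called against sgLuc in either BRSST group. With 5.51% of all tested genes called higher in BRSST+sgEzh2 and 10.8% in BRSST+sgLuc, 1 of 5 does not set the list apart. Rpl22, deleted in some T cell leukemias, read 11.84, 11.94, 11.87 and 11.67 in BRSST+sgEzh2 and 11.86, 11.995, 11.69, 11.86 and 11.78 in BRSST+sgLuc, against 11.52, 11.59, 11.56 and 11.69 in sgLuc. BRSST+sgEzh2 replicate 4 and BRSST+sgLuc replicate 3 lay below the highest sgLuc array, and the differences of 0.24 and 0.25 did not pass (limma adjusted p = 0.153 and 0.0755). Rps15, mutated in chronic lymphocytic leukemia, differed by 0.23 in both groups (limma adjusted p = 0.127 and 0.0646). Rps14 and Rpl5 are described above.

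Mdm2-binding ribosomal proteins had 6 of 9 genes measured, with 2 called higher in BRSST+sgEzh2 and 3 in BRSST+sgLuc. Among all tested genes these shares were 5.51% and 10.8%, and 6 genes are few. Rpl23, a large-subunit protein that binds Mdm2, rose 1.37-fold in BRSST+sgEzh2 and 1.34-fold in BRSST+sgLuc (limma adjusted p = 0.00716 and 0.00432). Rps27l, a p53-induced paralog of Rps27, rose 1.24-fold in BRSST+sgLuc (limma adjusted p = 0.0409), a call lost in 7 of 9 fits that left out 1 array, and it differed by 0.28 in BRSST+sgEzh2 (limma adjusted p = 0.122). Its highest adjusted p over the alternatives was 0.114.

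Of 10 paralogs of ribosomal proteins listed, 9 were measured and 7 tested, with 1 called higher in BRSST+sgEzh2 and 4 in BRSST+sgLuc. Among all tested genes 5.51% and 10.8% were called higher. This list counts Rps27rt, which is not a member, and leaves out the member Rpl32l. Rpl32l rose 1.29-fold in BRSST+sgEzh2 and 1.23-fold in BRSST+sgLuc (limma adjusted p = 0.038 and 0.0381). Rpl22l1, which can take the place of Rpl22 in the ribosome, read 11.20, 11.52, 11.09 and 11.22 in BRSST+sgEzh2 and 11.47, 11.54, 11.36, 11.42 and 11.03 in BRSST+sgLuc, against 10.88, 10.95, 10.46 and 11.10 in sgLuc. BRSST+sgEzh2 replicate 3 and BRSST+sgLuc replicate 5 lay below the highest sgLuc array. Rpl22l1 rose 1.43-fold in BRSST+sgLuc (limma adjusted p = 0.0211), a call lost without BRSST+sgLuc replicate 1, sgLuc replicate 1 or sgLuc replicate 3 (highest adjusted p = 0.0654). In BRSST+sgEzh2 its difference was 0.41 (limma adjusted p = 0.113).

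Rpl36al, a near copy of Rpl36a, rose 1.37-fold in both groups (limma adjusted p = 0.0332 in BRSST+sgEzh2 and 0.013 in BRSST+sgLuc), and the first call was lost in 6 of 8 fits that left out 1 array (highest adjusted p = 0.102). Rps27rt, a retrocopy of Rps27 that the rule does not take, differed by 0.41 in BRSST+sgEzh2 (limma adjusted p = 0.0565) and rose by 0.43 in BRSST+sgLuc (limma adjusted p = 0.0184), a call lost without sgLuc replicate 3, with the replicate block and with the Y-linked class as a block (highest adjusted p = 0.0721). Rpl7l1 differed by 0.22 and 0.12 (limma adjusted p = 0.265 and 0.491). Rpl10l, known from testis, differed by -0.08 and 0.07 (limma adjusted p = 0.799 and 0.771), and Rps4l, a transcribed pseudogene in RefSeq, by -0.07 and 0.06 (limma adjusted p = 0.878 and 0.855). Probes of near-identical copies and of processed pseudogenes can share signal, so these values are uncertain. Fau, whose product holds a small-subunit protein fused to a ubiquitin-like one, differed by 0.26 and 0.25 (limma adjusted p = 0.111 and 0.0579).

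Promoters are shown for the 4 members with the largest and the 2 with the smallest BRSST+sgLuc difference among those with 1 entry in a RefSeq promoter table of GRCm38.p6, which held 51 of the 64 members. Each line gives 60 bases before and 20 bases from the annotated start, 5′ to 3′ on the gene's strand, and capitals mark a TOP-like tract or the letters CCGGAAG.
Rpl39, chrX:37085203-37085282, minus strand: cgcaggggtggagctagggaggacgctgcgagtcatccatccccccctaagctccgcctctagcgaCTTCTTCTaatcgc
Rps13, chr7:116334171-116334250, minus strand: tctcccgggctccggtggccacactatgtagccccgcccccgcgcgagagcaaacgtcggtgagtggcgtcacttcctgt
Rplp0, chr5:115559407-115559486, plus strand: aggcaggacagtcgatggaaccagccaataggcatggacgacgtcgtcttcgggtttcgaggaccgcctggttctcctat
Rpl11, chr4:136053374-136053453, minus strand: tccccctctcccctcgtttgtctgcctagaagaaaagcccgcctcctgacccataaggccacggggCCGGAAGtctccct
Rps16, chr7:28350629-28350708, plus strand: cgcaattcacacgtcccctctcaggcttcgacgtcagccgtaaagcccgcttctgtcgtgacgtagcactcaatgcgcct
Rpsa, chr9:120127706-120127785, plus strand: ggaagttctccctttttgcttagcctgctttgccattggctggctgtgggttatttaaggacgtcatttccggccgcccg

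A TOP-like tract was searched on the gene's strand as a C followed by at least 5 bases that are C or T, beginning from 5 bases before to 10 bases after the annotated start. Rpl39 held one, 8 bases long. So did 21 of 51 members (41.2%), against 15.98% of other measured genes with an entry and 13.9% of all 32851 promoters in the table. Annotated starts can lie off the true start by a few bases, and a tract outside the window was not counted. CCGGAAG, a core recognised by ETS family factors, was searched on both strands over 300 bases, where its reverse complement CTTCCGG can overlap a pyrimidine tract. It was found in 21 members (41.2%), against 13.1% of other genes and 8.86% of all promoters, Rpl39, Rpl11 and Rpsa among them.

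AAGATGGC, a YY1 motif, was found in 4 members (7.84%), against 3.63% of other genes and 2.75% of all promoters. CACGTG, the E-box that Myc binds, was in 4 members (7.84%), against 9.26% of other genes and 7.15% of all promoters. TATAAA was in 7 members (13.7%), against 14.6% of other genes and 13.6% of all promoters. In BRSST+sgLuc against sgLuc, 13 of 21 tested members with a tract were called higher with a median difference of 0.25, and 13 of 28 without one with a median of 0.24. With CCGGAAG 11 of 20 were called with a median of 0.24, and without it 15 of 29 with a median of 0.25. With TATAAA 6 of 7 were called with a median of 0.50, and without it 20 of 42 with a median of 0.23. With CACGTG these were 3 of 4 and 0.35, without it 23 of 45 and 0.24, and with AAGATGGC 1 of 4 and 0.20, without it 25 of 45 and 0.25. Of all tested members 53.2% were called higher in this comparison, and of all tested genes 10.8%. These counts are a description of few genes, with no test.

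The mitochondrial ribosome, a separate machine with its own set of nuclear-encoded proteins, had more genes called higher than lower as well. Of 75 tested genes for its proteins, 16 were called higher in BRSST+sgEzh2 and 40 in BRSST+sgLuc, each against sgLuc, and 0 lower in either. That is 21.3% and 53.3%, beside 5.51% and 10.8% of all tested genes. The median difference was 0.43 in BRSST+sgLuc, and between BRSST+sgEzh2 and BRSST+sgLuc it was -0.08, with 0 genes called by limma and 7 at an unadjusted p under 0.05. Mrpl35 had the largest rise in BRSST+sgLuc, by 0.97 ± 0.13 (log2, SE; limma adjusted p = 0.000368).

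Ribosome biogenesis factors, which make and fold ribosomal RNA and assemble the subunits, had 57 tested genes. Of these 6 were called higher and 0 lower in BRSST+sgEzh2, and 12 higher and 1 lower in BRSST+sgLuc, with a median of 0.22 in BRSST+sgLuc. The higher calls were 10.5% and 21.1% of the list, beside 5.51% and 10.8% of all tested genes. Nhp2, a protein of the box H/ACA particles that convert uridine in ribosomal RNA, rose by 0.80 ± 0.19 (log2, SE) in BRSST+sgLuc (limma adjusted p = 0.00825). Nip7, a factor of large-subunit assembly, rose by 0.51 in BRSST+sgEzh2 (limma adjusted p = 0.0238) and by 0.73 in BRSST+sgLuc (limma adjusted p = 0.00129). Tsr2, the chaperone that hands Rps26 to the ribosome, rose by 0.62 and 0.73 (limma adjusted p = 0.0102 and 0.00165), and Nop16 by 0.66 in BRSST+sgLuc (limma adjusted p = 0.024).

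Among other genes whose mRNAs carry a TOP tract, mainly translation factors, 17 were tested, and 3 were called higher in BRSST+sgEzh2 and 6 in BRSST+sgLuc, with 0 lower. These were 17.6% and 35.3%, beside 5.51% and 10.8% of all tested genes. Eef1b2, the exchange factor of elongation factor 1, rose by 0.58 in BRSST+sgEzh2 (limma adjusted p = 0.00464) and by 0.70 in BRSST+sgLuc (limma adjusted p = 0.000597). Subunits of initiation factor 3 were among them, Eif3e with 0.44 in both groups and Eif3f with 0.36 and 0.40. Naca, which shields new chains at the ribosome, rose by 0.31 in BRSST+sgLuc (limma adjusted p = 0.0203).

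Regulators of ribosomal protein mRNAs had 16 tested genes, of which limma called 0 in BRSST+sgEzh2 (4 at an unadjusted p under 0.05), and 3 higher (18.8%) and 1 lower (6.25%) in BRSST+sgLuc, where 10.8% of all tested genes were higher and 11.7% lower. Counts this small do not set the list apart from other genes. Mtor, the kinase that controls TOP mRNA translation, rose by 0.85 ± 0.23 (log2, SE; limma adjusted p = 0.019) in BRSST+sgLuc, and Rptor, its partner in complex 1, by 0.43 ± 0.10 (limma adjusted p = 0.00853). Eif4ebp1, a translation repressor that this kinase inactivates, rose by 0.75 ± 0.16 (limma adjusted p = 0.00545). Rps6ka3, a kinase of the Rps6k family, fell by 1.19 in BRSST+sgLuc (limma adjusted p = 0.0165).

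**Figure D5:**
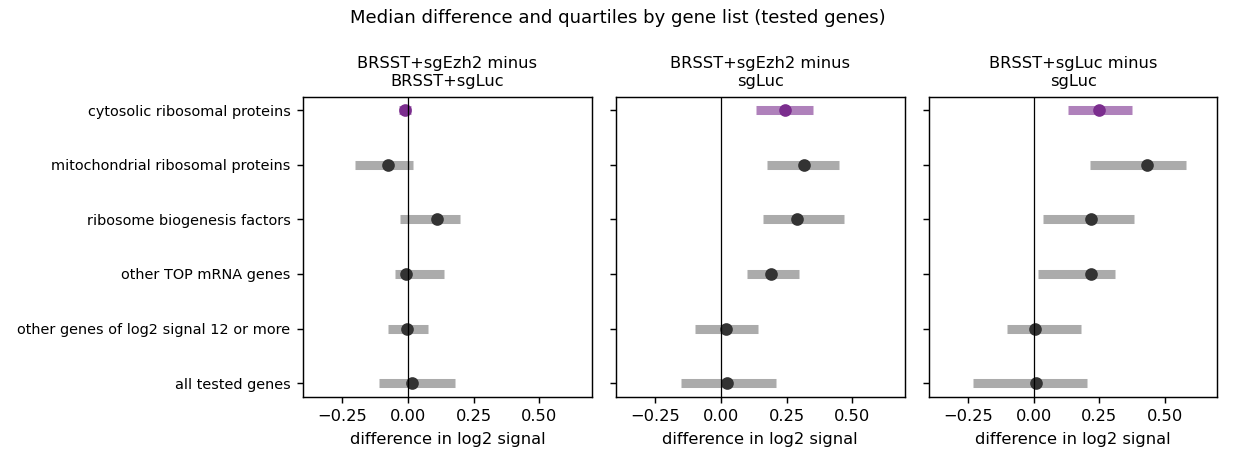
Median difference in log2 signal (points) with quartiles (bars) over the tested genes of each list, for BRSST+sgEzh2 minus BRSST+sgLuc, BRSST+sgEzh2 minus sgLuc and BRSST+sgLuc minus sgLuc from left to right. Cytosolic ribosomal proteins (purple) have medians of -0.01, 0.24 and 0.25, so their rise over sgLuc is shared by other lists shown. Mitochondrial ribosomal proteins have medians of -0.08, 0.32 and 0.43. Ribosome biogenesis factors have 0.11, 0.29 and 0.22, and other TOP mRNA genes -0.01, 0.19 and 0.22. Other genes of log2 signal 12 or more and all tested genes stay near 0.

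Markers of blood cell types moved with the same comparisons. The mean log2 signal of 16 erythroid markers ranged from 7.30 to 7.86 in BRSST+sgEzh2 and from 7.84 to 8.56 in BRSST+sgLuc, against 7.28 to 7.58 in sgLuc. The BRSST+sgLuc arrays did not overlap the sgLuc arrays, and the BRSST+sgEzh2 arrays overlapped both other groups. Of 11 erythroid markers tested, 1 was called higher in BRSST+sgEzh2 and 5 in BRSST+sgLuc, each against sgLuc, where 5.51% and 10.8% of all tested genes were. Klf1, Rhag, Epb42, Sptb, Ermap and Trim10 were under the array median on every array of BRSST+sgEzh2 and of sgLuc, as were Sptb and Ermap in BRSST+sgLuc.

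The mean of 18 B lineage markers ranged from 6.82 to 8.63 in BRSST+sgEzh2 and from 6.73 to 8.31 in BRSST+sgLuc, against 8.78 to 10.05 in sgLuc, with 5 and 13 of 15 tested genes called lower. Rag2, Il7r and Dntt were under the median on every BRSST+sgEzh2 array, and Vpreb3 and Ms4a1 besides these on every BRSST+sgLuc array. Rag2 was also under the median on every sgLuc array. The mean of 17 neutrophil markers was 12.54 ± 0.09 (SD, n = 4) in BRSST+sgEzh2 and 12.47 ± 0.04 (SD, n = 5) in BRSST+sgLuc, against 12.69 ± 0.05 (SD, n = 4) in sgLuc. Of these, 2 (Prtn3 and Ctsg, granule proteases) were called higher in both BRSST groups, and 3 were called lower in BRSST+sgEzh2 and 7 in BRSST+sgLuc. Cd14, a receptor for bacterial lipopolysaccharide on monocytes, was called higher by 2.44 in BRSST+sgEzh2 and 2.54 in BRSST+sgLuc (log2; limma adjusted p = 5.7e-05 and 2.3e-05). Called lower in BRSST+sgEzh2 and in BRSST+sgLuc were 1 and 8 of 13 T and NK cell markers, 3 and 8 of 16 monocyte and macrophage markers, 4 and 5 of 8 basophil, mast cell and eosinophil markers, 4 and 5 of 10 dendritic cell markers, and 3 and 3 of 7 plasma cell markers. Stem and progenitor markers had 0 and 2 of 7 lower, and megakaryocyte and platelet markers 0 and 1 of 4 higher. Among all tested genes, 3.86% and 11.7% were called lower and 5.51% and 10.8% higher. A count such as 1 of 13 T and NK cell markers in BRSST+sgEzh2 (7.69%) is too small to set against that share. The part of these cell types in the ribosomal protein differences was not tested.

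Members also varied together among arrays of 1 group. Pairs of other genes were not compared, so this is not shown to be particular to the members. Over 13 arrays, the deviations of pairs of members from their group means had a median Pearson r of 0.33 (quartiles 0.06 and 0.55), a description over values that share each array's labelling and scaling. Rpl31 followed the mean of the other members most closely (r = 0.86) and Rps23 least (r = 0.01). Replicate 4 of sgLuc held the highest sgLuc value for 38 of 62 members (31.8% over all tested genes), and replicate 3 of sgLuc the lowest for 31 (38.9% over all tested genes). In BRSST+sgEzh2, replicate 2 was highest for 35 members (26.6% over all tested genes) and replicate 4 lowest for 33 (24.96% over all tested genes).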

How the data were processed

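Total RNA of whole bone marrow (2 ng) was labelled with a Pico kit using 10 PCR cycles and hybridised to 13 arrays, per the labels' protocols. The authors deposited log2 signals, 1 per row and array, and the submitters' processing notes name R 3.5.01 and oligo. The sources used here do not give the oligo version or how background was corrected and arrays were normalized. The log2 scale was inferred from the range of values (3.23 to 13.75) and the array medians (7.19 to 7.32). There is no read depth, and the number of arrays limits the precision.

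A single gene symbol was given for 19572 of 22203 rows and none for 2631. For the 55 symbols with more than 1 row, none a member, the brightest row by mean was kept. Genes above the array median on at least 4 arrays were tested (10601) in 1 fit over 13 arrays with no covariates (lmFit and eBayes of limma 3.58.1 under R 4.3.3, Benjamini-Hochberg adjustment, threshold 0.05). Every adjusted p is from limma. Ezh2 also had an exact two-sided permutation test over 126 splits. The fit was also run on simulated data with independent noise for each gene. Members' deviations correlated between genes, so that run does not bear on the counts of members called. Correlation between arrays was at most 0.995, and no files were identical.

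The members and the 20 gene lists were chosen with earlier results of these data known, so no list has a p of its own. Named genes were the 8 largest rises among members called in a comparison, the highest and lowest signal, measured paralogs, stalk, blood cancer genes, Fau and Ezh2, and up to 4 called genes of each other list. Other members were named to account for all of them, and Rpl7, Rps16, Rps4x, Rpl31, Rps23, Mrpl35 and the promoters shown were chosen after values were seen. Promoter sequences are RefSeq's (GRCm38.p6).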

Additional observations from a re-analysis of the deposited data

Results flagged for a closer look

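Among 87 groups of 4 or 5 arrays of the named genes and the members' mean, 2 held an array far from the others, where chance gives about 1 in 20. Rps27l read 11.76 on BRSST+sgLuc replicate 5, with the nearest BRSST+sgLuc array at 12.06. Rpsa read 13.49 on the same array, with the nearest BRSST+sgLuc array at 13.35. The first is the lowest and the second the highest value of its gene in that group.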

How the results depend on the processing

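Alternatives were no filter, a 75th percentile filter, quantile normalization, equal array medians, the mean of a symbol's rows, array quality weights, variance fitted with a trend and robustly, only the 2 groups compared, a replicate block, no BRSST+sgLuc replicates 2 and 5, the Y-linked class as a block, and each array left out. Among the named genes that are members, with Rps27rt, Fau and Ezh2, no called difference turned direction. Between BRSST+sgEzh2 and BRSST+sgLuc, 0 members were called in any of them, and the median difference ran from -0.0307 to 0.00561 with 1 array left out, positive without BRSST+sgEzh2 replicate 4 alone. Between BRSST+sgEzh2 and sgLuc, where the count was 17, it was 36 with trended and robust variance, 34 with array quality weights, 26 without BRSST+sgLuc replicates 2 and 5, and 9 to 16 with 1 array left out (medians 0.221 to 0.276). Between BRSST+sgLuc and sgLuc, where it was 33, it was 47 with trended and robust variance, 24 with only the 2 groups compared or the Y-linked class as a block, and 17 to 30 with 1 array left out (medians 0.233 to 0.277). The replicate block gave 0, 12 and 26 calls in BRSST+sgEzh2 against BRSST+sgLuc, BRSST+sgEzh2 against sgLuc and BRSST+sgLuc against sgLuc. Shares of all tested genes called under the alternatives are not given here. The shifts in these counts therefore cannot be read as particular to the members. Deviations of same-numbered arrays of different groups correlated with r from -0.176 to 0.192 over 12 pairs, 4 above 0.1. Arrays of unlike numbers were not compared, so these values cannot show whether the numbers mark pairs. The main fit treats the arrays as unpaired. Across these same named genes, 1464 values kept their side of the threshold, 25 lost it and 39 gained it. Fits with 1 array left out hold fewer arrays, and the causes of the other shifts were not tested. The brightest members sit near the top of the signal range, and whether this limits how large a difference can be read was not tested. In BRSST+sgLuc against sgLuc, members of log2 signal 12 or more differed by -0.01 to 0.49. Other genes that bright differed by -0.84 to 0.78.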
